A study of Homo sapiens with 6 samples.

Results

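A set of 19 genes was read in every vector control sample of the human renal carcinoma line Caki-1 and was at or near 0 reads in every VHL knockout sample. The genes were selected on the raw read counts themselves, with at least 20 reads in each of the 3 vector control (VC) samples and at most 3 in each of the 3 VHL-KO samples, and with 16 symbol starts (collagens, integrins, cadherins, solute carriers and others) left out. They were 19 of the 60708 genes in the table and 19 of the 13326 genes that had at least 20 reads in each VC sample. Because the contrast of VHL-KO with VC chose them, their counts below are a description, and no test is given for any of them.

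The study examined how loss of VHL in tumor cells bears on antitumor immunity, and as a step of that work sequenced RNA from 3 VC and 3 VHL-KO samples of Caki-1, an established clear cell renal carcinoma line that carries an intact VHL gene. VC cells had the wild-type genotype and received the lentiCRISPR vector only, and VHL-KO cells received the same Cas9 vector with a guide RNA against VHL. The protocol selected infected cells with puromycin to derive clonal knockout lines, which were screened by immunoblot. A clone can differ from the bulk line in ways that precede the edit, and clone and genotype cannot be told apart here. Nothing states that replicates were separate cultures, so p-values measure only the spread between these samples, which may be technical. Reads assigned to genes came to 31789923, 28463579 and 34881739 for VC replicates 1 to 3, and to 29139722, 22805385 and 22628246 for VHL-KO replicates 1 to 3.

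VHL is the substrate receptor of a ubiquitin ligase that marks the alpha subunits of the hypoxia-inducible factors (HIFs) for destruction, and its loss in the proximal tubule is the hallmark of clear cell renal carcinoma. HIFs bind short DNA elements built around ACGTG or GCGTG and are known chiefly as activators. Genes are shut off by other machinery, which includes DNA methylation, Polycomb complexes, methylation of histone H3 at lysine 9 and histone deacetylases.

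The targeted gene was still transcribed in the knockout. VHL (chr3:10141778-10153667, GRCh38) had 1454, 1124 and 1522 reads in VC replicates 1 to 3 against 929, 657 and 650 in VHL-KO replicates 1 to 3. Its level was 40.1 ± 2.38 CPM (counts scaled per library size and normalized by the trimmed mean of M-values, TMM; SD, n = 3) in VC and 31.9 ± 2.49 CPM (SD, n = 3) in VHL-KO, and all 3 VHL-KO samples lay below all 3 VC samples in counts. The log2 fold change was -0.33 ± 0.11 (SE), with an adjusted p of 0.0109 (quasi-likelihood test of edgeR, adjusted by Benjamini-Hochberg over 17401 tested genes). With library size alone it was -0.53. It was not called with upper quartile factors (-0.22), without VC replicate 1 (-0.28), without VHL-KO replicate 2 (-0.30) or with offsets for GC content and length (-0.11). Counts over the whole gene do not show whether the reading frame was cut.

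The renal label was checked with 17 markers of renal epithelium and clear cell carcinoma, whose summed level was between 8497 and 9601 CPM in all 6 samples. Most of that sum came from VIM, with 6430 CPM in VC and 6135 CPM in VHL-KO, so it says little of the other markers. Of 15 tested, 3 were lower, 7 higher and 5 not called, against 38.8% lower and 28.2% higher among all 13063 tested protein-coding genes. PAX8, a renal lineage factor, had 15025, 13630 and 14580 reads in VC against 16327, 12971 and 13414 in VHL-KO, a log2 fold change of 0.52 (0.33 with library size alone). CDH16, a cadherin of kidney epithelium, had 218, 234 and 228 reads in VC against 1888, 1600 and 1530 in VHL-KO, a log2 fold change of 3.42. LHX1, a factor of kidney development, fell by 1.67 on the log2 scale and EPCAM, an epithelial adhesion protein, by 1.42. PAX2 had 0 counts in every sample and CDH1 at most 3. Markers of endothelial and immune cells were low in sum, at most 5.47 CPM in any sample. The fibroblast sum was higher, since COL1A1 alone had 33.64 CPM in VC and 25.15 CPM in VHL-KO. Some markers of these cell types moved with the groups. The 5 endothelial markers summed to 0.168 to 0.237 CPM in VC and 0.324 to 0.711 CPM in VHL-KO. KDR had 4, 0 and 9 reads in VC against 0 in each VHL-KO sample. PECAM1 had 1, 5 and 0 reads in VC against 14, 7 and 9 in VHL-KO, a log2 fold change of 2.73 that was 4.57 without VC replicate 2, was not called without VC replicate 3 (2.11) and was under the filter without VHL-KO replicate 1. The 5 immune markers summed to 1.501 to 2.355 CPM in VC and 3.89 to 5.47 CPM in VHL-KO, mostly from CD14, while PTPRC had at most 1 count. The 7 fibroblast markers summed to 37.3 to 47.3 CPM in VC and 26.1 to 30.3 CPM in VHL-KO, mostly from COL1A1, while LUM had 0 counts and DCN at most 2. PDGFRB, a receptor of that list, had 282, 319 and 293 reads in VC against 55, 50 and 55 in VHL-KO, and fell by 1.94 on the log2 scale. The part of these differences in the results below was not tested. In such bulk RNA, fewer cells that express a gene and less RNA per cell cannot be told apart.

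All 19 genes were sparsely expressed in the control cells. Their mean VC levels ran from 0.691 to 2.86 CPM, with a median of 0.98 CPM. The median was 18.9 CPM over all genes with at least 20 reads in each VC sample, the 19 included. The most abundant of the 19 stood at the 16.8th percentile of all those genes. Summed over the set, the VC samples held 733, 732 and 881 counts and the VHL-KO samples 22, 7 and 23. The pooled VHL-KO level was 3.24% of the VC level, with a 95% exact Poisson interval of 2.42% to 4.25% that covers counting error only, and the limit of 3 reads capped it. By the fit across all genes 59.7% of tested genes were called in either direction, 31.2% lower and 28.5% higher in VHL-KO, and the 19 genes, which all passed the filter on low counts through their VC reads, were among the lower ones. Their selection used this contrast, and nothing is read from that count.

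**Figure D1:**
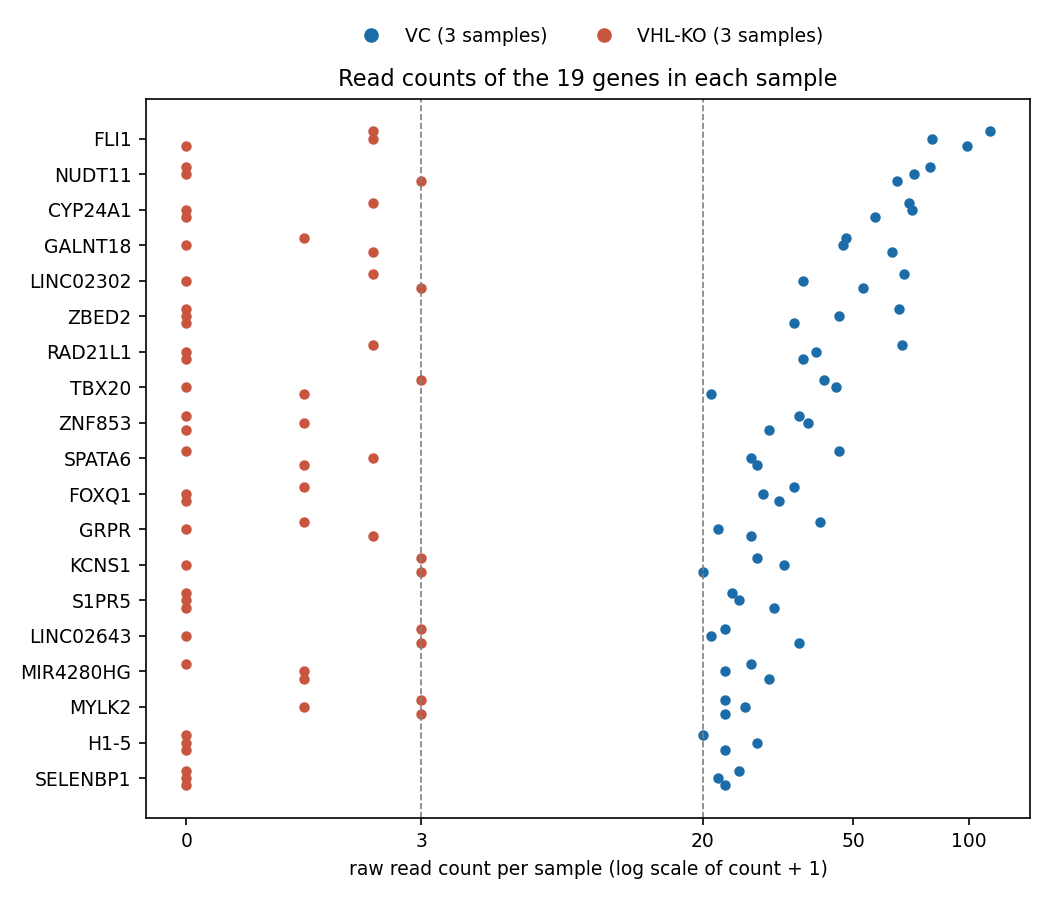
Raw read counts of the 19 genes (rows) in each of the 3 VC samples (blue) and 3 VHL-KO samples (red), on a log scale of count + 1. Dashed lines mark the selection limits of 3 and 20 reads, and no point lies between them because the genes were chosen that way.

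A group of 5 genes encode transcription factors or zinc finger proteins. FLI1, an ETS factor of blood and endothelial development, had 99, 80 and 113 reads in VC replicates 1 to 3 against 0, 2 and 2 in VHL-KO replicates 1 to 3. It was the most abundant of the 19 in VC, at 2.86 ± 0.147 CPM (SD, n = 3). The pooled VC level was 49.9 times the VHL-KO level (95% exact interval of the ratio 19.3 to 184, counting error only, as for the ratios below). The rule limited the counts on both sides of these ratios and lower bounds. A high ratio was thus fixed in advance, and the intervals are no test and do not allow for the selection. All VC samples were high and close together, and VHL-KO replicate 1 had no read. TBX20, a T-box factor of heart development, had 21, 45 and 42 reads in VC against 1, 0 and 3 in VHL-KO, a ratio of 18.5 (7.01 to 69.0). VC replicate 1 was low for this gene, and its coefficient of variation over VC samples, 41.8%, was the highest of the 19. FOXQ1, a forkhead factor of epithelial cells, had 32, 29 and 35 reads in VC against 0, 0 and 1 in VHL-KO, a ratio of 65.6 (11.5 to 2619). Its VC samples varied least of the 19, with a coefficient of variation of 2.95%. For FOXQ1 and TBX20 this spread was not compared with counting error, which is large at such low counts. ZBED2, a BED-type zinc finger protein, had 35, 46 and 66 reads in VC against 0 in each VHL-KO sample, at least 11-fold lower against a floor of 3 counts per library. ZNF853, a zinc finger protein with little known function, had 30, 38 and 36 reads in VC against 0, 1 and 0 in VHL-KO, a ratio of 71.1 (12.5 to 2835). The upper limits for FOXQ1 and ZNF853 are wide because each rests on a single VHL-KO read.

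Relatives of these factors behaved variously. The shares of all tested protein-coding genes, 38.8% lower and 28.2% higher in VHL-KO, are the background for the counts of relatives and partners. Of 18 ETS genes other than FLI1, 15 could be tested, and 10 were lower and 2 higher. ETS1 had 3214, 2534 and 4470 reads in VC against 814, 703 and 719 in VHL-KO, and fell by 1.62 on the log2 scale. It remained well expressed, whereas ERG, the closest relative of FLI1, had 0 counts in every sample. Among 12 forkhead genes, 10 were tested, with 4 lower and 3 higher, against 38.8% and 28.2% of protein-coding genes. FOXC2 had 311, 250 and 302 reads in VC against 34, 27 and 39 in VHL-KO, and fell by 2.55 on the log2 scale. FOXC1 had 248, 203 and 326 reads in VC against 481, 386 and 417 in VHL-KO, a log2 fold change of 1.29. The T-box list had 5 tested genes, of which 3 were lower and 1 higher beside the same background, and TBX18 fell by 1.13 on the log2 scale. These lists of relatives were drawn up after the 19 genes were known.

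Several of the genes encode enzymes. CYP24A1, the mitochondrial hydroxylase that inactivates vitamin D in the proximal tubule, had 57, 71 and 70 reads in VC against 0, 0 and 2 in VHL-KO, a ratio of 67.7 (18.5 to 563). All 3 VC samples were far above all 3 VHL-KO samples. The VHL-KO reads of CYP24A1 all lay in replicate 3, so its VHL-KO level above 0 comes from 1 library. The vitamin D receptor VDR, which induces CYP24A1, had 1907, 1694 and 1998 reads in VC against 992, 813 and 910 in VHL-KO, and fell by 0.49 on the log2 scale. CYP27B1, which makes the active hormone, had 44, 37 and 42 reads in VC against 15, 13 and 22 in VHL-KO, a log2 fold change of -0.74 that was not called (adjusted p = 0.0844, quasi-likelihood test of edgeR, adjusted by Benjamini-Hochberg). It was called with library size alone (-0.93), with the offsets for GC content and length (-1.03) and without VHL-KO replicate 3 (-1.05). Of 6 tested vitamin D genes other than CYP24A1, VDR was the 1 called lower, 0 were higher and 5 were not called, against 38.8% and 28.2% of protein-coding genes. NUDT11, a hydrolase of diphosphoinositol polyphosphates, had 65, 72 and 79 reads in VC against 3, 0 and 0 in VHL-KO, a ratio of 49.2 (16.6 to 241). The VHL-KO reads of NUDT11 all lay in replicate 1, so its VHL-KO level above 0 comes from 1 library. Its near-identical neighbour NUDT10 had 3, 7 and 3 reads in VC against 0 in each VHL-KO sample, and since reads were kept only if they mapped to 1 place, the split of reads between the 2 genes is uncertain.

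GALNT18, of the family that starts mucin-type O-glycosylation, had 63, 47 and 48 reads in VC against 2, 0 and 1 in VHL-KO, a ratio of 36.0 (12.1 to 177). Of 20 other genes of that pathway, 11 were tested, and 7 were lower and 2 higher, against 38.8% and 28.2% of protein-coding genes. The most abundant, GALNT2, had 11069, 10978 and 12141 reads in VC against 5812, 5384 and 5954 in VHL-KO, and fell by 0.44 on the log2 scale. SELENBP1, a selenium-binding methanethiol oxidase, had 23, 22 and 25 reads in VC against 0 in each VHL-KO sample, at least 5.29-fold lower. MYLK2, the myosin light chain kinase of skeletal muscle, had 23, 26 and 23 reads in VC against 3, 1 and 3 in VHL-KO, a ratio of 7.03 (3.24 to 18.1). No other of the 19 had reads in all 3 VHL-KO samples. The smooth muscle kinase MYLK had 4241, 4448 and 5732 reads in VC against 1572, 1394 and 1610 in VHL-KO, and fell by 1.10 on the log2 scale.

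Receptors and channels were represented by GRPR, S1PR5 and KCNS1. GRPR, the receptor of gastrin-releasing peptide, had 27, 22 and 41 reads in VC against 2, 0 and 1 in VHL-KO, a ratio of 20.5 (6.80 to 101). Of the exonic bases of GRPR, 17.6% overlapped a gene on the opposite strand, and reads of the pair cannot be told apart there where counting is not known to use strand. The ligand gene GRP had 0 counts in every sample. Of 4 genes of bombesin peptides and receptors other than GRPR, 1 was tested. That gene was higher (log2 fold change 1.04), as were 28.2% of tested protein-coding genes. S1PR5, a receptor of sphingosine-1-phosphate, had 31, 25 and 24 reads in VC against 0 in each VHL-KO sample, at least 6.08-fold lower. The other receptors of this lipid differed among themselves. S1PR1 had 996, 833 and 1192 reads in VC against 313, 225 and 222 in VHL-KO, and fell by 1.44 on the log2 scale. S1PR3 had 383, 389 and 520 reads in VC against 117, 58 and 92 in VHL-KO, and fell by 1.73. S1PR2 had 280, 230 and 322 reads in VC against 272, 195 and 230 in VHL-KO, and S1PR4 had 2, 3 and 8 against 15, 6 and 4, and neither was called, except that S1PR2 was called higher with upper quartile factors (log2 fold change 0.41). SPHK1, the kinase that makes the lipid, was higher, with 5876, 6061 and 6083 reads in VC against 8219, 6849 and 6430 in VHL-KO, a log2 fold change of 0.79 that came to 0.26 with the GC and length offsets. Over the 10 genes of this pathway, 4 were lower, 1 higher and 5 not called, and the share lower is near the 38.8% of all tested protein-coding genes. KCNS1, a potassium channel subunit that modifies partner channels and conducts no current alone, had 20, 33 and 28 reads in VC against 3, 0 and 3 in VHL-KO, a ratio of 9.23 (4.06 to 25.9). Its highest count in VC was in replicate 2, and VHL-KO replicate 2 had no read.

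Germline and chromatin genes formed another group. RAD21L1, a cohesin subunit of meiotic chromosomes, had 37, 40 and 67 reads in VC against 0, 0 and 2 in VHL-KO, a ratio of 49.2 (13.4 to 410). The VHL-KO reads of RAD21L1 all lay in replicate 3, so its VHL-KO level above 0 comes from 1 library. SPATA6, needed for the neck of the sperm cell, had 28, 27 and 46 reads in VC against 1, 2 and 0 in VHL-KO, a ratio of 23.02 (7.66 to 114). For both genes VC replicate 3, the deepest library, had the highest count. The mitotic relative RAD21 had 3986, 2805 and 5621 reads in VC against 1082, 963 and 937 in VHL-KO, and fell by 1.48 on the log2 scale (by 0.89 with the GC and length offsets). Of 7 tested cohesin genes other than RAD21L1, 5 were lower and 2 higher, against 38.8% and 28.2% of protein-coding genes. The meiotic REC8 was among the higher ones with 37, 22 and 45 reads in VC against 85, 57 and 47 in VHL-KO (log2 fold change 1.41). H1-5, a linker histone made mainly during DNA replication, had 23, 28 and 20 reads in VC against 0 in each VHL-KO sample, at least 5.47-fold lower. Messages of such histones mostly lack a poly(A) tail, and how RNA was selected for the libraries is not given in the sources used here. The linker histone H1-2 had 424, 394 and 463 reads in VC against 1821, 1383 and 1183 in VHL-KO, a log2 fold change of 2.31 (1.66 with the GC and length offsets). H1-10 was higher as well (0.73 on the log2 scale), but turned to -0.02 with the GC and length offsets. H1-4 went the way of H1-5, with 28, 33 and 47 reads in VC against 8, 11 and 17 in VHL-KO, and fell by 1.00 on the log2 scale, or by 1.78 with the offsets. That call was lost with upper quartile factors, with the DESeq2 test and on leaving out replicate 2 or 3 of VC, or replicate 1 (-0.68) or 2 of VHL-KO. H1-3 had 6, 14 and 7 reads in VC against 2, 0 and 3 in VHL-KO and was not called (log2 fold change -1.86), except with the offsets (-2.30), and was -2.61 without VHL-KO replicate 3.

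The 3 remaining genes, 15.8% of the set, were long noncoding RNAs, against 8.31% of the other genes with at least 20 reads in each VC sample, and the other 16 were protein-coding. LINC02302 had 53, 37 and 68 reads in VC against 3, 0 and 2 in VHL-KO, a ratio of 21.6 (9.07 to 67.5). LINC02643 had 36, 21 and 23 reads in VC against 3, 0 and 3 in VHL-KO, a ratio of 9.12 (4.01 to 25.6). MIR4280HG had 30, 23 and 27 reads in VC against 1, 1 and 0 in VHL-KO, a ratio of 27.4 (7.33 to 230). No function of these RNAs is established. Per length, LINC02643 had the highest VC level of the 19, 1.80 CPM per kb of its 439 exonic bases, and MIR4280HG the lowest, 0.125 CPM per kb.

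The limits cut through a continuous range of values. NUDT11, LINC02302, TBX20, KCNS1, LINC02643 and MYLK2 reached 3 reads in a VHL-KO sample, and KCNS1 and H1-5 had 20 reads in their lowest VC sample. Just outside, FLG had 97, 105 and 124 reads in VC against 4, 0 and 0 in VHL-KO. PDZD2 had 63, 57 and 70 reads in VC against 2, 1 and 4 in VHL-KO. ERVMER34-1 had 72, 42 and 60 reads in VC against 3, 4 and 3 in VHL-KO, and 7 genes in all missed the VHL-KO limit by 1 read. On the VC side, SMURF2P1 had 18, 30 and 23 counts in VC and PCDH18 had 18, 23 and 23, both with at most 3 reads in each VHL-KO sample. SLC17A1 and SLC37A1 met both limits and were left out by symbol alone, with 34, 30 and 35 and with 66, 68 and 78 counts in VC and at most 2 in VHL-KO.

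Depth bears on the rule, since the VHL-KO libraries were the shallower ones on average and most of the genes lay near the VC limit. With all counts scaled to the smallest library, 9 genes met the limits in place of 19. Leaving out VHL-KO replicate 1 gave 32 genes. The same limits with the groups exchanged gave 14 genes that were read in VHL-KO and nearly silent in VC.

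The VC range of the 19 genes held many others. Between 0.691 and 2.86 CPM in VC there were 2207 genes with at least 20 reads in each VC sample. Of these, 21 had at most 3 reads in each VHL-KO sample, namely the 19 and the pair of SLC genes. That number was fixed by the rule, whose limits it repeats, and nothing is read from it. With a limit of 10 reads there were 90, and with 20 reads 311. Among the 2188 genes of this range outside the set, 411 were called lower and 727 higher in VHL-KO. Over all tested genes the shares were 31.2% lower and 28.5% higher. The median log2 fold change of the 2188 was 0.16, against -0.01 over all tested genes. The 19, all lower, had been taken out of this range first.

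**Figure D2:**
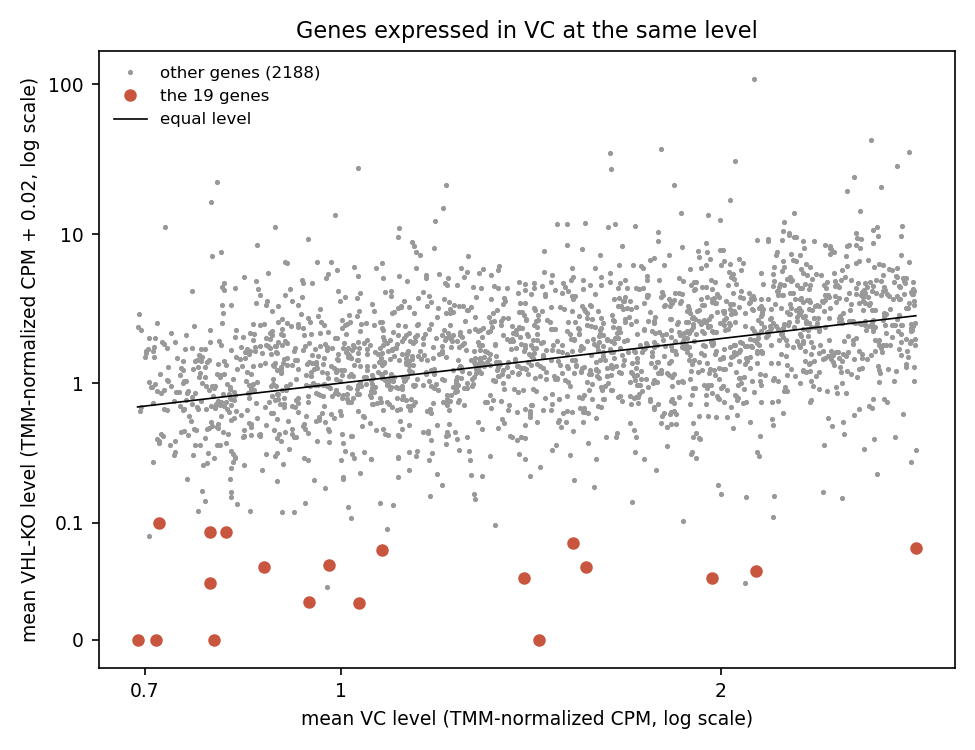
Mean VHL-KO level against mean VC level (TMM-normalized CPM, log scales, 0.02 added to the VHL-KO level) for the 2207 genes in the VC range of the set. The 19 genes (red) form the lower edge because they were chosen for low VHL-KO counts, and the 2188 others (grey) scatter around the line of equal level.

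The 19 genes did not lie together in the genome. None had its start within 1000 kb of another, and the closest pair, KCNS1 and CYP24A1, lay 9.07 Mb apart. Chromosome 20 carried 4 of them (RAD21L1, MYLK2, KCNS1 and CYP24A1), or 21.1%, against 2.68% of the other genes with at least 20 reads in each VC sample. Those other genes of chromosome 20 had a median log2 fold change of 0.01, against -0.13 over all chromosomes.

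The nearest tested protein-coding gene on each side gave 38 neighbours, 10 of them over 500 kb away. Noncoding genes and genes under the filter on low counts were passed over. Of the neighbours, CSNK2A3 overlaps GALNT18 and SNPH overlaps RAD21L1, and both were lower. Of the 38, 33 (86.8%) had more than 3 reads in every VHL-KO sample, against 95.3% of all tested protein-coding genes. Among them 22 were lower, 7 higher and 9 not called, that is 57.9% lower and 18.4% higher, against 38.8% and 28.2% of all 13063 tested protein-coding genes. Over the 191 tested genes of any kind with a start within 500 kb, 45 were lower (23.6%) and 51 higher (26.7%), against 31.2% and 28.5% of all tested genes, and the median log2 fold change was 0.07, against -0.01 over all tested genes.

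TMEM74B, 40.6 kb from the start of RAD21L1, moved the opposite way, with 3, 0 and 1 reads in VC against 61, 83 and 59 in VHL-KO (log2 fold change 6.08 ± 0.52, SE, and 7.27 without VC replicate 1). NEBL, 79.9 kb from LINC02643, had 25, 16 and 29 reads in VC against 75, 75 and 53 in VHL-KO, a log2 fold change of 2.09. FOXC1, given above, lay 298 kb from FOXQ1 and was higher as well. These neighbours were thus higher in the samples in which the gene beside them was nearly silent. On the other side of RAD21L1, LINC02643 and FOXQ1 the nearest neighbours were lower. They were SNPH at 40.2 kb (log2 fold change -0.63), MLLT10 at 151.7 kb (-0.635) and EXOC2 at 619 kb (-0.31). ETS1, 99.0 kb from FLI1, was lower but kept at least 703 counts in every VHL-KO sample. SENCR, a noncoding gene that overlaps FLI1 on the opposite strand, had 9, 20 and 16 reads in VC against 0 in each VHL-KO sample. RASA1, 129.5 kb from MIR4280HG, had 1397, 1159 and 1964 reads in VC against 253, 280 and 296 in VHL-KO, and fell by 1.86 on the log2 scale. H2AC16, 2.27 kb from H1-5, had 9, 17 and 6 reads in VC against 0, 1 and 2 in VHL-KO, a log2 fold change of -2.78 whose call was lost without VHL-KO replicate 1 (-2.14), which fell under the filter without VC replicate 2, and which was -3.71 without VHL-KO replicate 3 and -3.58 with the offsets.

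**Figure D3:**
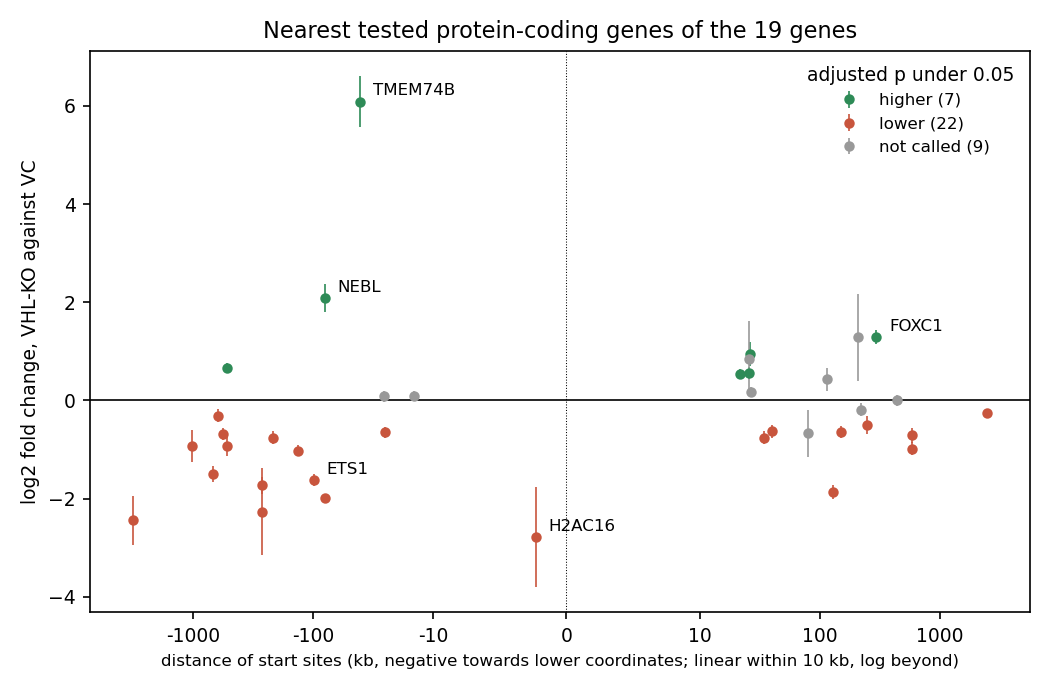
Log2 fold change (VHL-KO against VC, bars show the SE) of the nearest tested protein-coding gene on each side of the 19 genes, against the distance between start sites in kb. Of the 38 neighbours 22 were called lower (red), 7 higher (green) and 9 neither (grey), and TMEM74B stands at 6.08.

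Upstream sequences were at hand for 11 of the 19 genes (RefSeq, GRCh38.p14), and 4 are shown, 3 of them as protein-coding genes that hold a motif named next and ZBED2 because it holds no CG pair. They are the 250 bases before the start, 5' to 3' on the gene's strand, for RAD21L1 (chr20:1225794-1226043, plus strand), TBX20 (chr7:35254101-35254350, minus strand), ZBED2 (chr3:111595347-111595596, minus strand) and GRPR (chrX:16123315-16123564, plus strand). Capitals mark ACGTG or GCGTG on either strand, the letters found at the core of HIF elements.
RAD21L1: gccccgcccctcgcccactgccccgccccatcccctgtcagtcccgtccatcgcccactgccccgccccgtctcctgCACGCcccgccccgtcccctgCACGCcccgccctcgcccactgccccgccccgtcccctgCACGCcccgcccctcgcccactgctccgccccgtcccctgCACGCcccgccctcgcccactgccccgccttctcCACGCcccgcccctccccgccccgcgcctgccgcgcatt
TBX20: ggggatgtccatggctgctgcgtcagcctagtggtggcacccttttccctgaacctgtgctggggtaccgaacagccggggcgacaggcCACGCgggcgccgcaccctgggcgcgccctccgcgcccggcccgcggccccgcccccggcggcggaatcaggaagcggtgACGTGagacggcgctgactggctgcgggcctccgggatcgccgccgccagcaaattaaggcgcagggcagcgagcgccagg
ZBED2: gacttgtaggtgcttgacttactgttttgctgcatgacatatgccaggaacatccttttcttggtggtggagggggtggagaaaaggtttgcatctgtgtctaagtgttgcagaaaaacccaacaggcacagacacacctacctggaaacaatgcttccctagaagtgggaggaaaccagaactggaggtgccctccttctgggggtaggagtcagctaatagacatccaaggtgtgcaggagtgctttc
GRPR: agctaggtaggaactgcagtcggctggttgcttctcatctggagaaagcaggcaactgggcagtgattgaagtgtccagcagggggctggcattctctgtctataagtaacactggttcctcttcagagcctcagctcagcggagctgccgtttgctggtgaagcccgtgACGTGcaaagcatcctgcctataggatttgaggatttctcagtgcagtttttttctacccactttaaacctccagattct
The RAD21L1 stretch has 81.6% G and C and holds GCGTG 5 times on the opposite strand, within a repeated unit. The TBX20 stretch holds each motif 1 time, the GRPR stretch holds ACGTG 1 time, and the ZBED2 stretch has no CG pair at all. The stretch of MIR4280HG, not shown, holds ACGTG 1 time as well. It precedes the RefSeq start (chr5:87122196-87122445, minus strand), but lies inside the gene as placed by GENCODE (chr5:87048858-87138397). Distances from this gene use the GENCODE start. In the full window of 250 bases before to 50 after the start, these letters are common, with ACGTG in 21.6%, GCGTG in 36.3% and TATAAA, which was also searched on both strands, in 11.95% of all 27305 promoters of the table. Among the 10157 promoters of other genes with at least 20 reads in each VC sample, the shares were 27.3% for ACGTG, 51.65% for GCGTG and 5.24% for TATAAA. With a sequence for 11 of the 19 genes, a comparison of the set with these shares is void. A match is a run of letters and not a bound site. The G and C content of the transcripts, known for all 19, had a median of 49.7%, against 47.7% for the other genes with at least 20 reads in each VC sample.

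Genes that act in silencing, or that oppose it, were taken from 4 lists, beside a background of 38.8% lower and 28.2% higher among tested protein-coding genes. In the DNA methylation list, 7 of 16 tested genes were lower and 3 higher, a share lower near that background, with a median log2 fold change of -0.28. UHRF1, which brings the maintenance methyltransferase to newly copied DNA, had 4026, 4303 and 5058 reads in VC against 404, 413 and 508 in VHL-KO, and fell by 2.77 on the log2 scale. DNMT1, that methyltransferase, had 7339, 7217 and 8261 reads in VC against 1213, 1084 and 1106 in VHL-KO, and fell by 2.20. For both genes every VHL-KO sample was far below every VC sample. TET1, an oxidase that starts the removal of DNA methylation, had 47, 43 and 63 reads in VC against 19, 8 and 9 in VHL-KO, and fell by 1.54.

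In the Polycomb list, 15 of 30 tested genes were lower and 10 higher, with a median of -0.47. PCGF6, a subunit of a variant repressive complex, fell by 1.76 on the log2 scale, CBX2, a reader of methylated histone H3, by 1.64 and KDM6A, a demethylase that opposes Polycomb, by 1.59. The genes of H3K9 methylation and the HUSH complex had 10 of 15 lower and 1 higher, with a median of -0.53. The methyltransferases SUV39H2 and SUV39H1 fell by 1.64 and 1.45, and MPHOSPH8, a HUSH subunit, was the higher one, with 2125, 1693 and 2138 reads in VC against 3220, 2516 and 2132 in VHL-KO (log2 fold change 0.94). Among deacetylases and corepressors 9 of 17 were lower and 4 higher, with a median of -0.37. HDAC11 had 24, 36 and 24 reads in VC against 0, 7 and 1 in VHL-KO, and fell by 2.80. That value rests on single libraries, and was -5.07 without VHL-KO replicate 2 and -2.14 without VHL-KO replicate 1. HDAC5 had 317, 274 and 265 reads in VC against 1010, 900 and 791 in VHL-KO, a log2 fold change of 2.20, and HDAC10 was higher by 2.06. Each list thus held genes that moved in either direction.

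**Figure D4:**
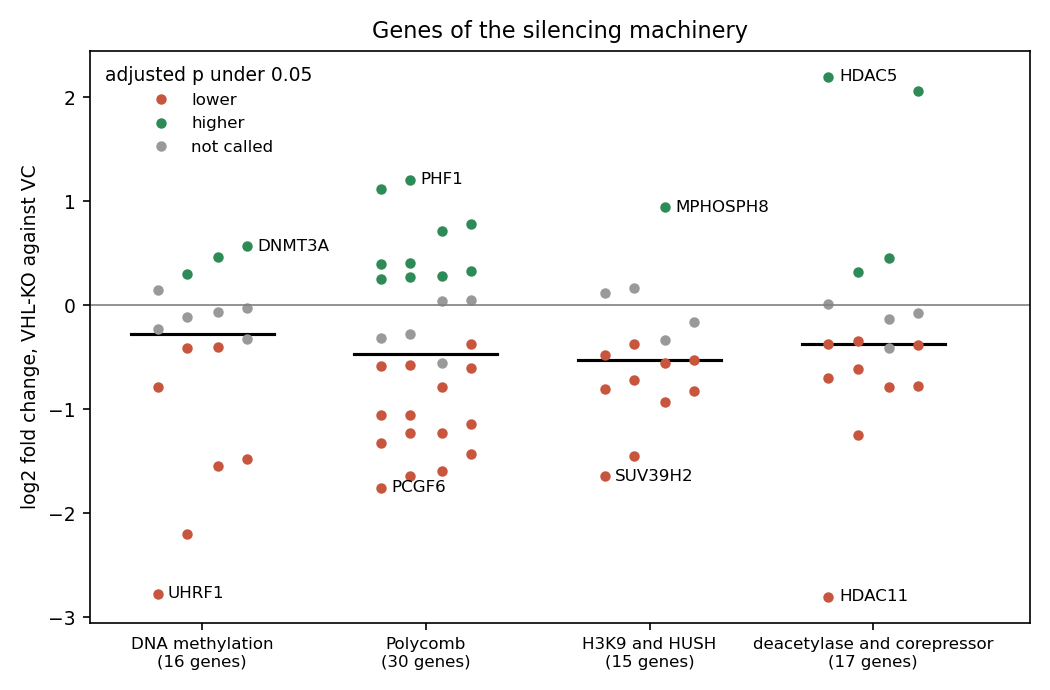
Log2 fold change (VHL-KO against VC) of each tested gene in 4 lists of silencing machinery, with the median of each list as a black line. Red points were called lower, green higher and grey neither, and UHRF1 and HDAC11 lie lowest at -2.77 and -2.80, the latter at -5.07 without VHL-KO replicate 2.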

How the data were processed

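RNA-seq was compared between 3 VC and 3 VHL-KO samples of Caki-1 cells, grouped by the genotype in the labels. Per the methods of the study, RNA was extracted with Trizol, TrimGalore and Cutadapt trimmed the reads, STAR aligned those of at least 20 nt to GRCh38.p13, SAMtools kept uniquely mapped reads and HTSeq counted them on genes. The deposited values are the raw count of reads per gene, neither normalized nor filtered by the authors. Tool versions, strandedness and annotation release are not given in the sources used here. Genes of low level and antisense pairs may be exposed to that, which was not tested.

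The genes were chosen on raw counts (at least 20 in each VC sample, at most 3 in each VHL-KO sample), and they and the gene lists were chosen with earlier results of these data known. The lists of relatives and pathway partners were written after the 19 genes and their values were seen. The 17401 genes that reached 10 reads in 1 or more samples were fitted with edgeR 4.0.16 in R 4.3.3 (quasi-likelihood test, TMM factors, Benjamini-Hochberg threshold 0.05), which was tested on simulated data. DESeq2 1.42.0 and other factors and filters were alternatives. Positions came from GENCODE release 44. Lower bounds had been planned for the folds of all 19 genes. They are given only where no VHL-KO sample had a read, against 3 counts per library, and elsewhere the ratio of pooled levels is given with its exact conditional binomial interval at 95%. Intervals and floors cover counting error only.

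Counts per sample were planned for the 12 genes with the highest mean VC level, up to 4 per role class, those nearest the limits, the nearest tested neighbours and the 3 largest changes per silencing list. Counts of the other members, partners, SENCR and the markers named singly were added after their values were seen.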

Additional observations from a re-analysis of the deposited data

How the results depend on the processing

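The number of genes in the set depended on its limits. In place of 19 there were 4 with no read allowed in VHL-KO, 93 with up to 10 reads, 45 with at least 10 reads in each VC sample, 3 with at least 50 and 9 with counts scaled to the smallest library. With 1 replicate left out there were between 20 and 32, since fewer samples then had to meet the limits, and 32 came without VHL-KO replicate 1. With no symbol start left out there were 21. No gene of the set had another within 1000 kb, nor within the narrower and the wider distance tried.

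Across all genes 5436 were called lower and 4958 higher. Library size alone gave 6737 and 3764, which moved the share of higher calls from 47.7% to 35.8% and the overall median of log2 fold changes from -0.01 to -0.20. Upper quartile factors gave 4668 and 5712 and a median of 0.10. Leaving out 1 replicate gave 4831 to 5391 lower and 4397 to 4986 higher calls. The replicate block gave 5437 lower and 4847 higher calls, and samples with the same number did not deviate together (Pearson r 0.063, -0.00045 and 0.028 across genes), so they share only a number and were not treated as paired.

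Offsets for GC content and length, added after seeing the data, turned the log2 fold change of H1-10 to -0.0156, and the cause was not tested. With the offsets SPHK1 came to 0.26, TBX18 to -0.67 and KDM6A to -1.04, all still called. In the silencing lists, library size alone left 4 higher Polycomb genes and 2 higher deacetylase genes, and the offsets left 6 higher Polycomb genes. The H3K9 list had 2 higher genes with upper quartile factors, without VC replicate 2 and with the offsets. VIM was called lower with library size alone (-0.26). The planned comparison of promoter GC content, CpG ratio and motifs, also for protein-coding genes alone, is void and not reported, because only 11 of the 19 genes had a promoter sequence. At these depths a gene with no read in a VHL-KO sample could be present at up to 0.112 to 0.141 CPM.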
